A study of Mus musculus with 11 samples.

Results

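Untreated cells of the mouse mammary carcinoma line MamBo43 were compared, over all genes, with cells of the line MamBo89, leaving out the divergent MamBo89 culture named AG3. The libraries were chosen by line and treatment from their labels, and 4 of the 11 libraries of the series took part, 1 of MamBo43 and 3 of MamBo89. Both lines were set up from tumors of FVBhuHER2 virgin female mice, which carry a human HER2 transgene. MamBo89 was derived from tumor A and is labelled HER2 stable, whereas MamBo43 was derived from tumor B and is labelled HER2 labile, since it is HER2-positive in culture but gave rise to HER2-negative tumors. The study's methods count a HER2-positive clone among the MamBo89 samples, and the labels do not say whether AG3 is that clone, so the counts given with AG3 added may set a clone beside uncloned cells. The MamBo89 libraries were untreated cells, cells given trastuzumab at 30 µg/ml for 30 days and then grown for 30 days without it, and cells kept in trastuzumab for 60 days, in this order wherever 3 values are listed. Trastuzumab is an antibody against human HER2, and the untreated MamBo43 cells had received none. Each library was made from a separate culture, and MamBo43 and MamBo89 each stand for a single tumor, so line, tumor of origin and HER2 lability cannot be told apart. The table lists mouse genes only, so the human transgene was not analysed here.

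HER2 is a receptor tyrosine kinase of the ErbB family, and its overexpression drives a subset of breast carcinomas. Carcinoma cells can keep an epithelial program, held together by cadherins, claudins and desmosomes, or take up parts of a mesenchymal program with fibrillar collagens, matrix proteases and transcription factors of the Zeb and Snai families, a shift known as epithelial-mesenchymal transition (EMT). TGF-β family ligands are well-known inducers of that shift, and luminal, basal and milk genes mark the differentiation states of mammary epithelium.

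Total counts were 26212551 in MamBo43 and 17040454 to 22295814 in MamBo89, within the range of 17040454 to 27127662 over the series. Levels are given as CPM (counts scaled to the library size), and 3 counts correspond to 0.117 CPM in MamBo43 and 0.138 to 0.175 CPM in MamBo89. The labels call both lines carcinoma lines, and several epithelial markers, though not all, were high in each of the 4 libraries compared. Krt18, a keratin of simple epithelia, had 1086 CPM in MamBo43 against 994, 905 and 665 CPM in MamBo89. Epcam, an epithelial adhesion molecule, had 633 CPM against 728, 585 and 714 CPM. Neither gene was called different, and Krt8, Cdh1 and Gata3 were not called either. Krt5 and Krt19, keratins of basal and luminal mammary cells, were at 0 or a single count in each library. AG3 stood apart: it differed by at least 2-fold in 1612 to 2098 genes above 5 CPM from the other MamBo89 libraries, which differed from each other in 42, 170 and 228 genes. By the same measure MamBo43 differed from these 3 libraries in 2196, 2267 and 2561 genes, and from AG3 in 2688.

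In edgeR's quasi-likelihood test, 3319 of 12893 tested genes (25.7%) passed an adjusted p under 0.1 with at least a 2-fold difference. MamBo43 was higher in 1817 of them (14.1% of tested genes) and lower in 1502 (11.6%), and these shares are the background for every gene group. A log2 fold change is that of MamBo43 over MamBo89, and the value after ± is its standard error. The spread comes from the 3 MamBo89 libraries, and the single MamBo43 library was assumed to vary like them. Among the 8067 tested genes with at least 10 CPM in all 4 libraries, 934 (11.6%) were called, a smaller share than among all tested genes. In 74 genes called higher all MamBo89 libraries were at 0 counts, and in 157 genes called lower MamBo43 was at 0. With AG3 added to MamBo89, 1697 genes (13.1%) were called, 1666 of them among the 3319 and in the same direction. With untreated MamBo89 and AG3 alone, 952 genes (7.4%) were called. DESeq2 called 3082 genes (23.9%), of which 3035 were shared with edgeR in the same direction, and the fit of all 11 libraries called 3373 (24.5%). MamBo43 lay beyond AG3, on the side away from the other MamBo89 libraries, in 3023 of the 3319 called genes (91.1%). It was at least 2-fold beyond AG3 in 2018 of them (60.8%). The calls were chosen by their distance from those other libraries, so these shares were partly set by the choice. The plot of MamBo43 against the MamBo89 mean shows calls over the whole range of levels, with a group of genes near 0 in MamBo89 and high levels in MamBo43.

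**Figure D1:**
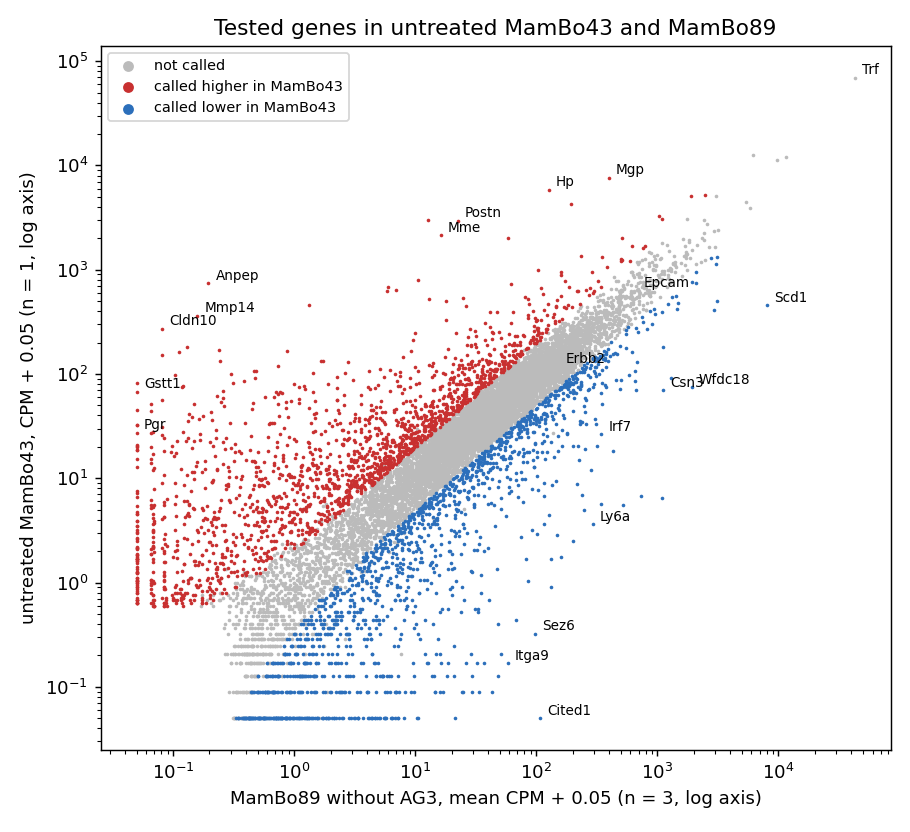
Each point is 1 of the 12893 tested genes, with its mean CPM in the 3 MamBo89 libraries on the x axis and its CPM in the single untreated MamBo43 library on the y axis, both with 0.05 added and on log axes. Red points are the 1817 genes called higher and blue points the 1502 genes called lower in MamBo43; Anpep, Mmp14 and Cldn10 lie far above the diagonal, Cited1, Itga9 and Sez6 far below it, and Epcam and Erbb2 close to it.

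The genes with the largest differences were near silent in one line and well expressed in the other. Gstt1, a glutathione transferase (chr10:75783813-75798584 of GRCm38), had 67.8 CPM in MamBo43 and no count in any MamBo89 library (at least 426-fold higher, edgeR adjusted p = 0.000257). Anpep, the membrane aminopeptidase N (chr7:79821803-79861059), had 743 CPM against 0.322, 0.0582 and 0.0547 CPM (log2 fold change 12.19 ± 0.35, edgeR adjusted p = 4.55e-05). Cldn10, a claudin of tight junctions (chr14:118787908-118875489), had 270.1 CPM, and MamBo89 held only counts in its untreated library (a ratio of 7721 with a 95% counting interval of 2137 to 63768, edgeR adjusted p = 4.55e-05). All 3 genes were thus high in MamBo43 and at most 0.322 CPM in any of the 3 MamBo89 libraries, and none had more than 0.146 CPM in AG3. Pgr, the progesterone receptor, had 27.3 CPM and no count in MamBo89 (at least 172-fold higher, edgeR adjusted p = 0.000627). Tfap2b, an AP-2 transcription factor, had 45.4 CPM against none (at least 285-fold higher, edgeR adjusted p = 0.000362). Tnfrsf11b, which encodes the decoy receptor osteoprotegerin, had 152 CPM (a ratio of 4347 with a 95% counting interval of 1202 to 35907, edgeR adjusted p = 4.55e-05). Arpin, an inhibitor of the Arp2/3 complex, and Acp5, an acid phosphatase, were also without a count in MamBo89, with 32.2 and 20.6 CPM in MamBo43. The remaining members of the 12 largest higher genes were Cav1, Dcn and Mmp14, described with their groups, and AC147806.2, which had 82.4 CPM against none and is not placed in the annotation used here.

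Among the genes with the largest differences in the other direction, Cited1, a transcriptional co-regulator expressed in the mammary gland (chrX:102247381-102252181), had no count in MamBo43 and 77.8, 86.3 and 156 CPM in MamBo89 (at least 909-fold lower, edgeR adjusted p = 0.000698). AG3 had 7.54 CPM of it, between MamBo43 and the other MamBo89 libraries. Itga9, an integrin subunit that binds tenascin (chr9:118606690-118901003), had 0.117 CPM against 58.3, 62.5 and 53.6 CPM (lower by a ratio of 494 with a 95% counting interval of 169 to 2398, edgeR adjusted p = 6.56e-05). Sez6, a membrane protein known from neurons, had 0.274 CPM against 98.3, 97.9 and 94 CPM (log2 fold change -8.40 ± 0.25, edgeR adjusted p = 4.55e-05). In these 3 genes every MamBo89 library lay far above MamBo43, and the MamBo89 libraries lay close together in Itga9 and Sez6 but not in Cited1. Eda, the TNF family ligand ectodysplasin, had 0.0783 CPM against 28.4, 34.8 and 25.4 CPM (lower by a ratio of 375 with a 95% counting interval of 104 to 3097, edgeR adjusted p = 0.000189). Xylt1, a xylosyltransferase that starts glycosaminoglycan chains, had 0.0783 CPM against 58.4, 49.8 and 36.2 CPM (lower by a ratio of 622 with a 95% counting interval of 172 to 5139.9, edgeR adjusted p = 0.000278). The others of the 12 were Ccdc85a, Cdhr4, Slc35f1, Nrcam, Kcnj12, Pcdhgb6 and Tbc1d16, at 0 to 0.157 CPM in MamBo43 and 10.9 to 55.9 CPM in MamBo89. Cdhr4 and Kcnj12 were at 1.56 and 0.0486 CPM in AG3 and were not called once AG3 was added. In Pcdhgb6 and Cdhr4, 48% and 33.3% of read-length windows also occur in transcripts of other genes, so their levels are uncertain.

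Among genes expressed in all 4 libraries, several secreted and matrix proteins were far more abundant in MamBo43. Postn, the matrix protein periostin (chr3:54361109-54391037), had 2952 CPM against 36.8, 18.6 and 12 CPM (log2 fold change 7.07 ± 0.52, edgeR adjusted p = 0.000417). Mme, the membrane metalloendopeptidase CD10, had 2143 CPM against 18.8, 13.1 and 16.7 CPM (log2 fold change 7.07 ± 0.20, edgeR adjusted p = 4.55e-05). Hp, the hemoglobin-binding plasma protein haptoglobin, had 5874 CPM against 192, 104 and 85.5 CPM (log2 fold change 5.56 ± 0.40, edgeR adjusted p = 0.000388). Mgp, matrix Gla protein, was at 7594 CPM against 297, 250.2 and 642 CPM (log2 fold change 4.29 ± 0.47, edgeR adjusted p = 0.00155). These values put Mgp and Hp among the most abundant transcripts of MamBo43, with a wide distance to every MamBo89 library. Enpp1, Nupr1 and Lrp1 were higher as well, with log2 fold changes of 5.37, 4.13 and 3.59 (edgeR adjusted p = 4.55e-05, 0.00162 and 6.55e-05).

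On the lower side of these expressed genes stood Scd1, the stearoyl-CoA desaturase that makes monounsaturated fatty acids (chr19:44394455-44407879), with 457 CPM against 8620.1, 7631 and 7984 CPM (log2 fold change -4.11 ± 0.19, edgeR adjusted p = 0.000108). AG3 had 751 CPM of Scd1, close to MamBo43, and the gene was not called with AG3 added. Mrc2, a collagen-binding endocytic receptor, had 92.2 CPM against 1377, 1568 and 980.2 CPM (log2 fold change -3.80 ± 0.34, edgeR adjusted p = 0.000771). Chsy1, a chondroitin synthase, had 18.2 CPM against 473, 462 and 361 CPM (log2 fold change -4.54 ± 0.25, edgeR adjusted p = 0.000189). For Mrc2 and Chsy1, AG3 was between MamBo43 and the other MamBo89 libraries, at 908 and 204 CPM. Synm, Lpcat2, Crispld2 and Pla2g7 were lower with log2 fold changes of -3.93, -3.88, -3.44 and -3.29 (edgeR adjusted p = 0.000225, 0.000162, 0.00192 and 0.000412).

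Genes were then grouped in lists of known function. Within each list the called member with the largest difference in each direction was named by rule, and further members named below were chosen after their values were seen. Of 46 tested mesenchymal and EMT genes, 30 were higher and 4 were lower in MamBo43 (median log2 fold change 2.28, against -0.01 over all tested genes). With AG3 added, 23 were higher and 1 was lower. Cav1, the main protein of caveolae, had 32 CPM and no count in MamBo89 (at least 202-fold higher, edgeR adjusted p = 0.000521). Dcn, the proteoglycan decorin, had 20.4 CPM against none (at least 128-fold higher, edgeR adjusted p = 0.000842). Col1a2, a chain of type I collagen, had 98 CPM against 0.0461, 0.116 and 0 CPM (a ratio of 1867 with a 95% counting interval of 638 to 9061, edgeR adjusted p = 4.55e-05). Each of these genes was at background in AG3 too, with at most 0.0972 CPM. Pdgfrb, a receptor for platelet-derived growth factor, had 51 CPM against 0.184, 0 and 0.109 CPM (log2 fold change 8.88 ± 0.42, edgeR adjusted p = 0.000117). Thbs1, thrombospondin 1, had 2021 CPM against 74.2, 47.3 and 54.6 CPM (log2 fold change 5.14 ± 0.23, edgeR adjusted p = 0.000108). The transcription factors Prrx1, Zeb1, Zeb2 and Snai2 were also called higher, Prrx1 with 44.5 CPM and the other 3 with at most 3.76 CPM in MamBo43.

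Not every mesenchymal gene followed. Vim, the intermediate filament vimentin, had 25.9 CPM in MamBo43 and 45.3, 26.1 and 58.7 CPM in MamBo89 and was not called (log2 fold change -0.72 ± 0.42, edgeR adjusted p = 0.225). Fn1, fibronectin, had 559 CPM against 587, 856 and 112 CPM, and MamBo43 lay within the MamBo89 range (log2 fold change 0.14 ± 0.92, edgeR adjusted p = 0.917). Tnc, the matrix protein tenascin C, was lower, with 19.2 CPM against 358, 277 and 119 CPM (log2 fold change -3.68 ± 0.69, edgeR adjusted p = 0.0098). Col5a1, Snai1 and Cnn1 were the other genes called lower. In the HER2-negative line MamBo38, derived from a tumor that MamBo43 formed, the 30 genes called higher were mostly more abundant still. MamBo43 held a median of 11.4% of the MamBo38 mean (n = 4) over these genes, under 25% in 19 of them and over 100% in 5, with a range of 0.575% to 10173%. Col1a2 shows the distance, with 2454 to 3057 CPM in the 4 MamBo38 libraries. Postn was the gene farthest above MamBo38, which had 22.4 to 36.3 CPM of it.

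Defining markers of fibroblasts were read beside these results. Of 12 markers, 8 were tested and 7 were called higher, and their summed level was 1345 CPM in MamBo43 against 148 to 186 CPM in MamBo89 and 71.0 CPM in AG3. Most of that sum was Fbln2 with 988 CPM, while Lum was at 0 in every library of the comparison and Pdgfra was not called (48.1 against 37.7, 35.2 and 65 CPM). Whether cells of another type contribute to the mesenchymal genes was not tested, and in bulk RNA fewer cells of a type and less RNA per cell cannot be told apart. Of 12 leukocyte markers, 2 were tested and Cd68 was called lower, with Ptprc at 0 throughout and a summed level of 1.21 CPM in MamBo43 against 8.06 to 16.9 CPM in MamBo89. Of 10 endothelial markers, 2 were tested and Erg was called higher (4.5 CPM against none), while Pecam1 was at most 0.328 CPM. Of 8 adipocyte markers, Pparg was tested and called higher at 0.587 CPM, and Adipoq was at 0.

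Epithelial genes were kept at the same time. Of 45 tested genes of epithelial junctions, 10 were higher and 3 were lower (median log2 fold change 0.28), and their summed level was 7104.5 CPM in MamBo43 against 6915 to 7381 CPM in MamBo89. Cdh1, E-cadherin, had 775 CPM against 1034, 1083 and 829 CPM and was not called (log2 fold change -0.31 ± 0.19, edgeR adjusted p = 0.235). Cldn7, a claudin of epithelial cells, had 246 CPM against 37.1, 15.8 and 12.1 CPM (log2 fold change 3.53 ± 0.51, edgeR adjusted p = 0.00399). Every MamBo89 library, AG3 with 61.6 CPM included, lay below MamBo43, and MamBo38 had 0.0481 to 0.298 CPM. Cldn8, Tjp3, Dsc2 and Ocln were also higher, and Pkp1 and Nectin1 were lower. Nectin1, a cell adhesion molecule, had 17.9 CPM against 121, 127 and 119 CPM (log2 fold change -2.74 ± 0.16, edgeR adjusted p = 0.0002). With AG3 added, 4 junction genes were higher and 2 were lower. The plot of levels by library shows these genes beside those of the following groups.

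**Figure D2:**
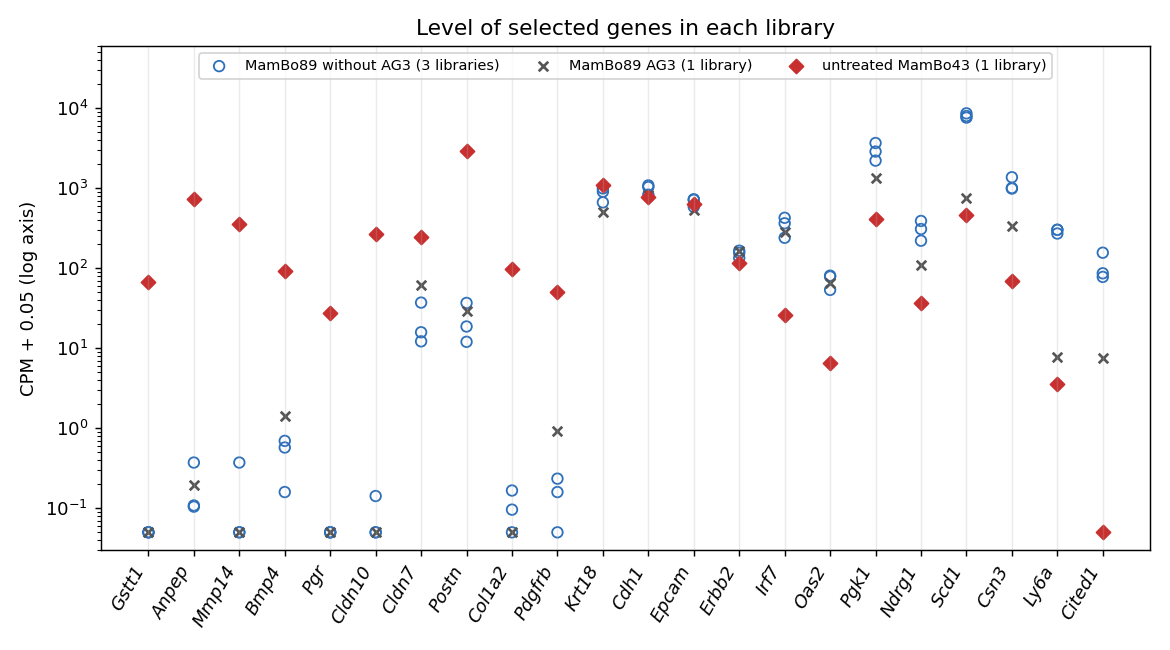
CPM with 0.05 added, on a log axis, of 22 genes in untreated MamBo43 (red diamonds, 1 library), MamBo89 without AG3 (open blue circles, 3 libraries) and MamBo89 AG3 (grey crosses, 1 library). MamBo43 lies above every MamBo89 library from Gstt1 to Pdgfrb, overlaps or adjoins them for Krt18, Cdh1, Epcam and Erbb2, and lies below them from Irf7 to Cited1, with AG3 near MamBo43 for Scd1 and Ly6a.

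The enzymes that cut extracellular matrix, and their inhibitors, differed in most tested members. Of 16 matrix metalloproteinase and TIMP genes, 11 were higher and 2 were lower in MamBo43 (median log2 fold change 2.04), and with AG3 added 9 were higher and none was lower. Mmp14, a membrane-anchored collagenase (chr14:54431612-54445364), had 360.2 CPM against 0.322, 0 and 0 CPM (log2 fold change 11.49 ± 0.50, edgeR adjusted p = 9.94e-05). Mmp13, a secreted collagenase (chr9:7272514-7283331), had 68.8 CPM against 0.23, 0.291 and 0.109 CPM (log2 fold change 8.35 ± 0.27, edgeR adjusted p = 4.55e-05). Mmp3, stromelysin 1 (chr9:7445822-7455975), had 56.3 CPM against 1.43, 2.5 and 2.73 CPM (log2 fold change 4.70 ± 0.29, edgeR adjusted p = 0.000246). MamBo43 stood above all MamBo89 libraries in these 3 genes, and AG3 had 0, 0.729 and 0.583 CPM. Mmp10, Mmp11, Mmp15, Mmp16 and Mmp19 were also higher, with 6.89, 9.48, 187, 5.6 and 3.84 CPM in MamBo43. Timp3, an inhibitor held in the matrix, was the most abundant of the group with 4241 CPM against 273, 200.4 and 111 CPM (log2 fold change 4.48 ± 0.41, edgeR adjusted p = 0.000834). The gelatinase gene Mmp2 was lower, with 8.54 CPM against 53.3, 72.7 and 84.1 CPM (log2 fold change -3.01 ± 0.32, edgeR adjusted p = 0.00146). AG3 had 3.06 CPM of Mmp2, below MamBo43, and neither Mmp2 nor Mmp17 was called with AG3 added. The higher gene Mmp16 also lost its call then, with 3.6 CPM in AG3. Mmp7, Mmp8, Mmp20 and Mmp25 had no count in any of the 4 libraries, and Mmp1b, Mmp9, Mmp12, Mmp21, Mmp24 and Mmp27 were too low for a test.

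AP-1 factors are well-known regulators of collagenase and stromelysin genes, and Fos, an AP-1 subunit, was called higher in MamBo43 (1691 against 673, 698 and 1004 CPM, log2 fold change 1.12, edgeR adjusted p = 0.0154). The AP-1 site TGANTCA was looked for on both strands of a window around the listed start of each gene (RefSeq on GRCm38.p6). The window ran from 250 bases before to 50 bases after the start, and 10185 of the 12893 tested genes had one. The site occurred in 3 of the 9 higher MMP and TIMP genes with a listed promoter and in 3 of the 12 tested ones (25%). It occurred in 6.41% of the promoters of tested genes and 7.81% of all 32851 listed promoters. No lower member had a listed promoter, so the share describes the list and cannot be tied to a direction. The promoters of Mmp13 (chr9:7272264-7272513, plus strand) and Mmp3 (chr9:7445572-7445821, plus strand) are shown 5′ to 3′ over the 250 bases before the start, since they hold the match, written in capitals, near it.
Mmp13: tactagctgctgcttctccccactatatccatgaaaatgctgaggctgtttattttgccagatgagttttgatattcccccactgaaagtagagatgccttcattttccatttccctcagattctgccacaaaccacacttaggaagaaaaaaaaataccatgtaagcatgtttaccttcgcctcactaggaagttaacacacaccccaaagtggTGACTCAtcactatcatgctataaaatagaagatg
Mmp3: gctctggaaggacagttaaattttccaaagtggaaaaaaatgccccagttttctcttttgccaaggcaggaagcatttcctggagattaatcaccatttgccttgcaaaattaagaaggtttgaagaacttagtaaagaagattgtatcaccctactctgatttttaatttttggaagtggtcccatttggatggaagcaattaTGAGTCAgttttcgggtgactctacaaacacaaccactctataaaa
The promoter window of Mmp14 held no match. A match describes the letters of the window and says nothing on its use in these cells.

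Ligands of the TGF-β family and the proteins that store them in the matrix were higher in MamBo43 in many cases. Of 39 tested TGF-β and BMP genes, 15 were higher and 4 were lower (median log2 fold change 0.78), with 10 and 3 when AG3 was added. Among ligands, Tgfb1 (chr7:25687002-25705077) had 85 CPM against 0.276, 0.291 and 0.437 CPM (log2 fold change 8.0 ± 0.22, edgeR adjusted p = 4.55e-05). Bmp4 had 91.4 CPM against 0.645, 0.524 and 0.109 CPM (log2 fold change 7.72 ± 0.38, edgeR adjusted p = 0.000129). Bmp7, another BMP ligand, went the other way with no count in MamBo43 and 8.71, 6.87 and 8.69 CPM in MamBo89 (at least 68.9-fold lower, edgeR adjusted p = 0.000436). Inhbb, the activin βB subunit, was also lower, with 132 CPM against 612, 660.3 and 782 CPM (log2 fold change -2.35 ± 0.21, edgeR adjusted p = 0.000769). The ligand genes were thus split in direction, and in each of these 4 MamBo43 lay outside the MamBo89 range. The latent TGF-β binding proteins were higher in all 4 members called, Ltbp1 with 665 CPM against 119, 120.2 and 91.3 CPM (log2 fold change 2.62 ± 0.17, edgeR adjusted p = 0.000309) and Ltbp2 with 504 CPM against 22.9, 12 and 18.9 CPM (log2 fold change 4.84 ± 0.29, edgeR adjusted p = 0.000228). Ltbp3 and Ltbp4 had log2 fold changes of 1.36 and 2.02. Of the receptors, Bmpr1a was called higher (156 against 74.1, 78.3 and 73.2 CPM).

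Receptors and substrates of cell-matrix adhesion changed in both directions. Of 60 tested focal adhesion genes, 14 were higher and 10 were lower (median log2 fold change 0.16), with 10 and 8 when AG3 was added. Itgb6, the integrin subunit of the epithelial receptor that activates latent TGF-β, had 20.4 CPM against 0.322, 0.0582 and 0.109 CPM (log2 fold change 6.86 ± 0.47, edgeR adjusted p = 0.000337). The laminin chain Lama3 and the collagen IV chain Col4a6 were higher, whereas the collagen IV chains Col4a1 and Col4a2 were lower (49.6 against 299, 216 and 235 CPM and 86 against 740.1, 558 and 680.3 CPM). Itga2 and Itga8, integrin α subunits, were lower with Itga9, with 1.25 against 29.6, 30.3 and 26.2 CPM and 183 against 1208, 1321 and 810.0 CPM. The common β subunit Itgb1 had 905 CPM against 1169, 1206 and 1027 CPM and was not called (log2 fold change -0.30 ± 0.15, edgeR adjusted p = 0.175).

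Markers of mammary differentiation separated the lines in a mixed way. Of 28 tested luminal genes, 5 were higher and 11 were lower in MamBo43 (median log2 fold change -0.81), and 4 and 6 with AG3 added. The steroid receptors stood on the higher side: beside Pgr, the estrogen receptor gene Esr1 had 32.9 CPM against 8.25, 9.26 and 7 CPM (log2 fold change 2.04 ± 0.20, edgeR adjusted p = 0.00103). The ETS factor Ehf and the keratin Krt7 were higher too, with log2 fold changes of 3.04 and 1.48. Some transcription factors of alveolar and luminal cells were on the lower side, among them Elf5 with 31.4 CPM against 89, 57.6 and 83.7 CPM (log2 fold change -1.26 ± 0.27, edgeR adjusted p = 0.0162). Xbp1, Foxa1 and Tfap2c were lower with log2 fold changes of -1.21, -1.11 and -1.41. Other factors did not follow, since Gata3 was not called and Ehf was higher.

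Milk genes differed in both directions, and 4 of the 5 tested caseins were called lower. Of 25 tested members, 9 were lower and 6 were higher (median log2 fold change -0.33), and 4 were lower and 4 were higher with AG3 added. Csn3, κ-casein, had 69.9 CPM against 1370.5, 1006 and 990.0 CPM (log2 fold change -3.97 ± 0.28, edgeR adjusted p = 0.000366). Csn1s1 and Csn2, the αs1- and β-casein genes, had 33.4 against 335, 370.4 and 233 CPM and 17.7 against 156, 95.5 and 52.8 CPM. MamBo43 lay below the lowest MamBo89 library in each of these 3 genes and in Csn1s2a (5.05 against 82.4, 55 and 15 CPM). Csn1s2b, a casein gene of low level, was instead called higher, with 2.9 CPM against 0.276, 0.349 and 0.164 CPM (log2 fold change 3.46 ± 0.53, edgeR adjusted p = 0.00499). Wfdc18, a secreted mammary protein, had 74.7 CPM against 1597, 990.4 and 3188 CPM (log2 fold change -4.66 ± 0.79, edgeR adjusted p = 0.00698). The MamBo89 libraries of Wfdc18 differed among themselves by over 3-fold, AG3 had 232 CPM, and the call was lost with AG3 added. Chil1, a chitinase-like secreted protein, had 12.1 CPM against 151, 149 and 557 CPM (log2 fold change -4.54 ± 1.05, edgeR adjusted p = 0.0199). Clu, the chaperone clusterin, was higher, with 522 CPM against 93.3, 55.9 and 106 CPM (log2 fold change 2.65 ± 0.30, edgeR adjusted p = 0.00178). The most abundant transcript of all 4 libraries was Trf, transferrin, a protein also secreted into milk, with 69012 CPM against 49472, 37124 and 41386 CPM, and it was below the 2-fold limit for a call (log2 fold change 0.72 ± 0.18, edgeR adjusted p = 0.027).

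Of 22 tested basal and myoepithelial genes, 8 were higher and 7 were lower, and 4 and 3 with AG3 added. Lmod1, a muscle actin-binding protein, had 23.1 CPM against 0.184, 0.116 and 0.0547 CPM (log2 fold change 7.52 ± 0.37, edgeR adjusted p = 0.000136). Lgr6, a receptor for R-spondins, had 642 CPM against 14.1, 3.9 and 2.79 CPM (log2 fold change 6.54 ± 0.71, edgeR adjusted p = 0.00151). Krt15, a keratin of stratified epithelia, was lower, with 0.392 CPM against 96.3, 69.8 and 39.7 CPM (log2 fold change -7.40 ± 0.80, edgeR adjusted p = 0.00146). The basal master factor Trp63 was higher with a log2 fold change of 1.31, and the basal keratin gene Krt14 was low in all libraries (2.39 against 6.45, 1.92 and 11.6 CPM) and not called. Of 26 tested stem and progenitor markers, 10 were higher and 7 were lower, and 5 and 4 with AG3 added. Cd24a, the surface glycoprotein CD24, had 342 CPM against 97.6, 66.7 and 92.7 CPM (log2 fold change 2.03 ± 0.21, edgeR adjusted p = 0.00124). Cd44, the hyaluronan receptor, was lower, with 77.6 CPM against 231, 243 and 232 CPM (log2 fold change -1.57 ± 0.14, edgeR adjusted p = 0.000847). Ly6a, which encodes Sca-1, had 3.56 CPM against 302, 271 and 302 CPM (log2 fold change -6.32 ± 0.21, edgeR adjusted p = 5.02e-05). The 3 surface markers thus differed in both directions, and AG3 lay with MamBo89 for Cd24a and Cd44 (105 and 229.9 CPM) but near MamBo43 for Ly6a (7.73 CPM), whose call was lost with AG3 added. Abcg2, a drug efflux transporter, was higher with a log2 fold change of 2.84, again without a call when AG3 was added. Kit and Notch1 were not called (log2 fold change -0.44 ± 0.14, edgeR adjusted p = 0.0501 for Kit, and log2 fold change 0.07 for Notch1).

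HER2 is listed only as the mouse gene Erbb2. Mouse Erbb2 (chr11:98412470-98437716) had 117 CPM in MamBo43 and 156, 134 and 166 CPM in MamBo89, and it was not called (log2 fold change -0.34 ± 0.16, edgeR adjusted p = 0.15). It had 31.6 and 19.9 CPM in treated MamBo43 and 17.8 to 24 CPM in MamBo38, and whether reads of the human transgene were counted on it was not tested. Of 40 tested ErbB genes, 7 were higher and 4 were lower (median log2 fold change -0.11), and 6 and 1 with AG3 added. These shares (17.5% and 10%) were near those of all tested genes (14.1% and 11.6%), so the list as a whole did not stand out. Egfr, the receptor for EGF and a partner of HER2, had 103 CPM against 21.9, 17.8 and 20.2 CPM (log2 fold change 2.40 ± 0.15, edgeR adjusted p = 0.000242). Among ligands, Nrg1, Nrg2 and Ereg were higher and Tgfa and Epgn were lower. Etv1, an ETS factor downstream of ERK signalling, had 54.5 CPM against 0.415, 0.815 and 1.42 CPM (log2 fold change 6.0 ± 0.40, edgeR adjusted p = 0.000307). Of the feedback inhibitors, Spry1 was higher (393 against 70.3, 64.8 and 57.5 CPM) and Errfi1 was lower (161 against 384, 443 and 526 CPM). Mien1, the neighbour of Erbb2 on chromosome 11, was lower, with 36.1 CPM against 118, 111 and 123 CPM (log2 fold change -1.67 ± 0.15, edgeR adjusted p = 0.000785), and was not called with AG3 added.

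Of 62 tested genes of TNF signalling, 17 were higher and 8 were lower (median log2 fold change 0.16), and 9 and 3 with AG3 added. The neutrophil chemokine genes Cxcl1, Cxcl2 and Cxcl5 were higher, Cxcl2 with 45.9 CPM against 0.645, 0.116 and 0.437 CPM (log2 fold change 6.79 ± 0.40, edgeR adjusted p = 0.000219) and Cxcl5 with 112 CPM against 5.8, 3.2 and 6.29 CPM (log2 fold change 4.48 ± 0.29, edgeR adjusted p = 0.000282). The cytokine gene Tnf had 33.2 CPM against 6.59, 4.6 and 5.63 CPM (log2 fold change 2.59 ± 0.22, edgeR adjusted p = 0.00066). The lymphocyte chemokine genes Ccl5 and Cxcl10 were lower, Ccl5 with 0.235 CPM against 8.84, 19.9 and 17.4 CPM (log2 fold change -5.96 ± 0.78, edgeR adjusted p = 0.00277). Chemokine genes thus differed in both directions, with AG3 on the MamBo89 side of Cxcl2, Cxcl5 and Cxcl10 and at 2.19 CPM for Ccl5. Il6 was near background, with 0.196 CPM against 0.737, 1.28 and 0.711 CPM, and its call as lower was lost with DESeq2 and with AG3 added. Stat3, the transcription factor downstream of IL-6 family receptors, was lower, with 419.8 CPM against 904, 832 and 1076 CPM (log2 fold change -1.13 ± 0.19, edgeR adjusted p = 0.00732), and was not called with AG3 added.

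Of 38 tested angiogenesis ligands and receptors, 17 were higher and 6 were lower (median log2 fold change 0.32), and 13 and 4 with AG3 added. Ccn2, the matricellular connective tissue growth factor CTGF, had 795 CPM against 14.7, 11.3 and 5.47 CPM (log2 fold change 6.27 ± 0.42, edgeR adjusted p = 0.000317). Nrp1, a co-receptor for VEGF, and Epas1, which encodes HIF-2α, were higher with log2 fold changes of 3.64 and 3.27. Angptl2, an angiopoietin-like secreted protein, was lower, with 3.13 CPM against 97.8, 101 and 75.2 CPM (log2 fold change -4.84 ± 0.28, edgeR adjusted p = 0.000216), as were Pgf, Efnb2 and Fgfr3. Of 40 tested Wnt and Notch genes, 5 were higher and 9 were lower (median log2 fold change -0.33), and 3 and 7 with AG3 added. Both ends of this list were held by secreted Wnt antagonists: Wif1 had 28.7 CPM against 0.138, 0.233 and 0.164 CPM (log2 fold change 7.34 ± 0.30, edgeR adjusted p = 7.67e-05), and Sfrp1 had 5.44 CPM against 392, 439 and 744 CPM (log2 fold change -6.56 ± 0.56, edgeR adjusted p = 0.000681). The Notch ligand gene Jag1 was lower with 4.9 CPM against 21.1, 26.9 and 19 CPM (log2 fold change -2.16 ± 0.28, edgeR adjusted p = 0.00277), and so was Jag2.

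Interferon-induced genes were lower in MamBo43 without exception among the called members. In the list of 43 tested interferon and MHC class I genes, 22 were lower and 6 were higher (median log2 fold change -1.04), and 16 and 4 with AG3 added. After the values were seen, the list was described in 2 sets. Of 30 interferon-induced genes, 20 were lower and none was higher (median log2 fold change -1.62, 28 of 30 negative), with summed levels of 900.0 CPM in MamBo43, 1982 to 2996 CPM in MamBo89 and 2639.5 CPM in AG3. Irf7, the transcription factor that amplifies type I interferon expression (chr7:141262706-141266481), had 26.3 CPM against 240.0, 427 and 364 CPM (log2 fold change -3.68 ± 0.40, edgeR adjusted p = 0.00148). Oas2, an antiviral oligoadenylate synthase, had 6.54 CPM against 53.5, 80.7 and 78.6 CPM (log2 fold change -3.41 ± 0.33, edgeR adjusted p = 0.000999). Isg15, a ubiquitin-like modifier (chr4:156199424-156200818), had 16.3 CPM against 64.9, 113 and 57 CPM (log2 fold change -2.23 ± 0.45, edgeR adjusted p = 0.0122). In all 3 genes AG3 lay within the range of the other MamBo89 libraries (285, 65 and 88.9 CPM), and MamBo43 lay below every MamBo89 library. Usp18, Oasl2, Ifit1 and Xaf1 were lower with log2 fold changes of -2.65, -3.01, -1.94 and -2.10. For Oas1a, also lower, 47.6% of read-length windows also occur in Oas1g.

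The interferon response element binds the STAT and IRF factors that switch on such genes, and its letters, GAAA followed by any 2 bases and GAAA again, were looked for on both strands in the same promoter windows. They occurred in 11 of the 18 lower interferon-induced genes with a listed promoter (61.1%) and in 16 of the 26 tested ones (61.5%), against 3.61% of the promoters of tested genes and 3.44% of all listed promoters. Interferon-induced genes are known for this element, so the share describes the list. The windows of Isg15 (chr4:156200819-156201068, minus strand), with 3 overlapping matches, and of Ifit1 (chr19:34640639-34640888, plus strand), with 2 matches on the opposite strand, are shown with the matches in capitals.
Isg15: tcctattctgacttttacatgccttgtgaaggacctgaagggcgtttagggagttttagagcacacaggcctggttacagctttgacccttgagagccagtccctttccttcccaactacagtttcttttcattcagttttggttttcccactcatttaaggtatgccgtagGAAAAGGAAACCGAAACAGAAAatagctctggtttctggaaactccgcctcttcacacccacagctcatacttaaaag
Ifit1: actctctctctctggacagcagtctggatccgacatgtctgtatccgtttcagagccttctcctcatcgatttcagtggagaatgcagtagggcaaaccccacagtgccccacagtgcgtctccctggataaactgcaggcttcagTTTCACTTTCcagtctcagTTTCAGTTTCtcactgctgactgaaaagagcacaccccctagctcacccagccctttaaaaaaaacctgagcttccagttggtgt
Irf7 and Oasl2, both lower in MamBo43, held no match in the window.

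The class I presentation genes did not share this direction. Of 13 tested members, 6 were higher and 2 were lower (median log2 fold change 0.90). H2-D1, a classical class I heavy chain (chr17:35262730-35267499), had 1312 CPM against 310.0, 402 and 336 CPM (log2 fold change 1.94 ± 0.17, edgeR adjusted p = 0.000739). H2-K1, the other classical chain, had 438 CPM against 163, 176 and 172 CPM (log2 fold change 1.39 ± 0.12, edgeR adjusted p = 0.000797). Psmb8, an immunoproteasome subunit, had 28.7 CPM against 2.3, 2.62 and 2.46 CPM (log2 fold change 3.58 ± 0.20, edgeR adjusted p = 0.000189). The peptide transporter gene Tap1 and the nonclassical class I gene H2-T23 were lower, with 34.4 against 73.1, 102 and 74 CPM and 8.22 against 23.8, 24.8 and 41.7 CPM. AG3 lay between the lines for H2-D1 (595 CPM) and near the other MamBo89 libraries for H2-K1 and Tap1 (160.5 and 91.5 CPM).

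Glutathione enzymes, which conjugate and reduce electrophiles and peroxides, were higher in MamBo43 in 17 of 42 tested genes and lower in 2 (median log2 fold change 0.70). With AG3 added, 12 were higher and none was lower. Beside Gstt1 and Anpep, the transferase gene Gstt3 had 104 CPM against 7.51, 6.41 and 8.26 CPM (log2 fold change 3.85 ± 0.16, edgeR adjusted p = 8.46e-05). Gsta4, which acts on lipid peroxidation products, had 37.7 CPM against 1.89, 0.874 and 1.59 CPM (log2 fold change 4.71 ± 0.31, edgeR adjusted p = 0.000307). Oplah, the 5-oxoprolinase of the glutathione cycle, had 47.2 CPM against 1.66, 1.34 and 0.82 CPM (log2 fold change 5.22 ± 0.28, edgeR adjusted p = 0.000166). The 5 tested neighbours Gstm7, Gstm6, Gstm2, Gstm1 and Gstm4 on chromosome 3 were all called higher, Gstm1 with 18.2 CPM against 0.184, 0.233 and 0.492 CPM (log2 fold change 5.93 ± 0.41, edgeR adjusted p = 0.000332). The Gstm genes are near copies, and 11.7% of the windows of Gstm1 also occur in other transcripts, so reads could be split between them. The peroxidase gene Gpx4 had 598 CPM against 299, 329.9 and 256 CPM, and the glutamate-cysteine ligase subunit gene Gclm had 60.4 against 30.2, 32 and 28.8 CPM.

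Glycolytic genes are known to be induced by low oxygen, and genes of this list differed in both directions. Of 39 tested hypoxia and glycolysis genes, 13 were lower and 6 were higher (median log2 fold change -0.68), with a summed level of 8349 CPM in MamBo43, 14183 to 21539 CPM in MamBo89 and 10576 CPM in AG3. With AG3 added, 5 were lower and 3 were higher, and with untreated MamBo89 and AG3 alone 3 were lower. Ndrg1, a hypoxia-responsive gene, had 37.2 CPM against 309, 221 and 389 CPM (log2 fold change -3.01 ± 0.37, edgeR adjusted p = 0.00219). Pgk1, phosphoglycerate kinase (chrX:106187100-106203699), had 414 CPM against 2871, 2211 and 3669.9 CPM (log2 fold change -2.79 ± 0.33, edgeR adjusted p = 0.00202). Ldha, the lactate dehydrogenase A subunit, had 760.4 CPM against 2041, 1606 and 2206 CPM (log2 fold change -1.33 ± 0.22, edgeR adjusted p = 0.00635). Each of the 3 was lowest in MamBo43, with AG3 between the lines at 109.9, 1329 and 1090.2 CPM. Gapdh, Tpi1, Gpi1, Pkm, Pdk1 and Bnip3 were lower as well, with log2 fold changes from -2.73 to -1.08. In Pgk1, Gapdh and Pkm, 52.8%, 22.6% and 17.8% of windows also occur in other transcripts, so their levels are uncertain. Ldhb, the other lactate dehydrogenase subunit, went the other way, with 26.4 CPM against 0.184, 0.116 and 0.0547 CPM (log2 fold change 7.72 ± 0.36, edgeR adjusted p = 0.000117). The prolyl hydroxylase genes differed in direction, Egln3 with 627 against 221, 133 and 294 CPM and Egln1 with 74.3 against 153, 137 and 214 CPM.

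The core of the hypoxia response element, ACGTG, was found on either strand in 9 of the 12 lower genes with a listed promoter (75%), in 2 of the 6 higher ones and in 25 of the 37 tested members with a window (67.6%), against 29.2% of the promoters of tested genes and 19.6% of all listed promoters. Genes induced by low oxygen are known for this element, so the share describes the list. Pgk1 (chrX:106186850-106187099, plus strand) is shown because it was the most abundant of the lower genes of this list in MamBo89, with its 2 matches in capitals.
Pgk1: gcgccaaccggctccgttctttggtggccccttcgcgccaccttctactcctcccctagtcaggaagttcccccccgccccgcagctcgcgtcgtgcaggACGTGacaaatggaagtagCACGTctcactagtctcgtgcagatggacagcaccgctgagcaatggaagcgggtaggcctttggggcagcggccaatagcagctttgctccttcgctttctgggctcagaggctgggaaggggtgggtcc
The matches begin at positions -150 and -131 from the listed start.

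Of 36 tested sterol and fatty acid synthesis genes, 5 were lower and 1 was higher (median log2 fold change -0.49, 28 negative), and 2 and 1 with AG3 added. The lower share (13.9%) was near that of all tested genes (11.6%), and the higher share (2.78%) was below it (14.1%). Their summed level was 4362 CPM in MamBo43, 12595 to 14574 CPM in MamBo89 and 3968 CPM in AG3. Scd1 alone held 7631 to 8620 CPM of it in MamBo89. Scd1 and Fads2, both desaturases, were the lower members with the largest differences, Fads2 with 40.2 CPM against 172, 124 and 201 CPM (log2 fold change -2.01 ± 0.30, edgeR adjusted p = 0.00446). Of 50 tested cell cycle genes, 11 were lower and 4 were higher (median log2 fold change -0.36), and 5 and 0 with AG3 added. Ccnd2, cyclin D2, had 8.89 CPM against 128, 117 and 106 CPM (log2 fold change -3.68 ± 0.20, edgeR adjusted p = 0.000162). Mki67, the proliferation marker Ki-67, had 20.5 CPM against 50.8, 36.7 and 42.7 CPM, whereas AG3 had 136 CPM. Mtap, a methylthioadenosine phosphorylase next to the Cdkn2a locus, was higher, with 122 CPM against 29.4, 25.7 and 14.4 CPM (log2 fold change 2.43 ± 0.33, edgeR adjusted p = 0.00314). AG3 had 85.9 CPM of Mtap, its call was lost with AG3 added, and it had no count in MamBo38. Of 13 tested Hox genes, which keep positional identity, 9 were higher and 1 was lower (median log2 fold change 2.77), and 7 and 0 with AG3 added. Hoxa10 had 24.1 CPM against 0.23, 0.116 and 0.328 CPM (log2 fold change 6.72 ± 0.35, edgeR adjusted p = 0.00016), and Hoxa7 had 18.1 CPM against 0.737, 0.233 and 0.711 CPM (log2 fold change 5.00 ± 0.43, edgeR adjusted p = 0.000698). Hoxa13, at the end of the same cluster, was lower, with 0.901 CPM against 5.9, 5.01 and 6.56 CPM (log2 fold change -2.66 ± 0.38, edgeR adjusted p = 0.00401). The bar plot of the lists sets their shares of called members beside those of all tested genes.

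**Figure D3:**
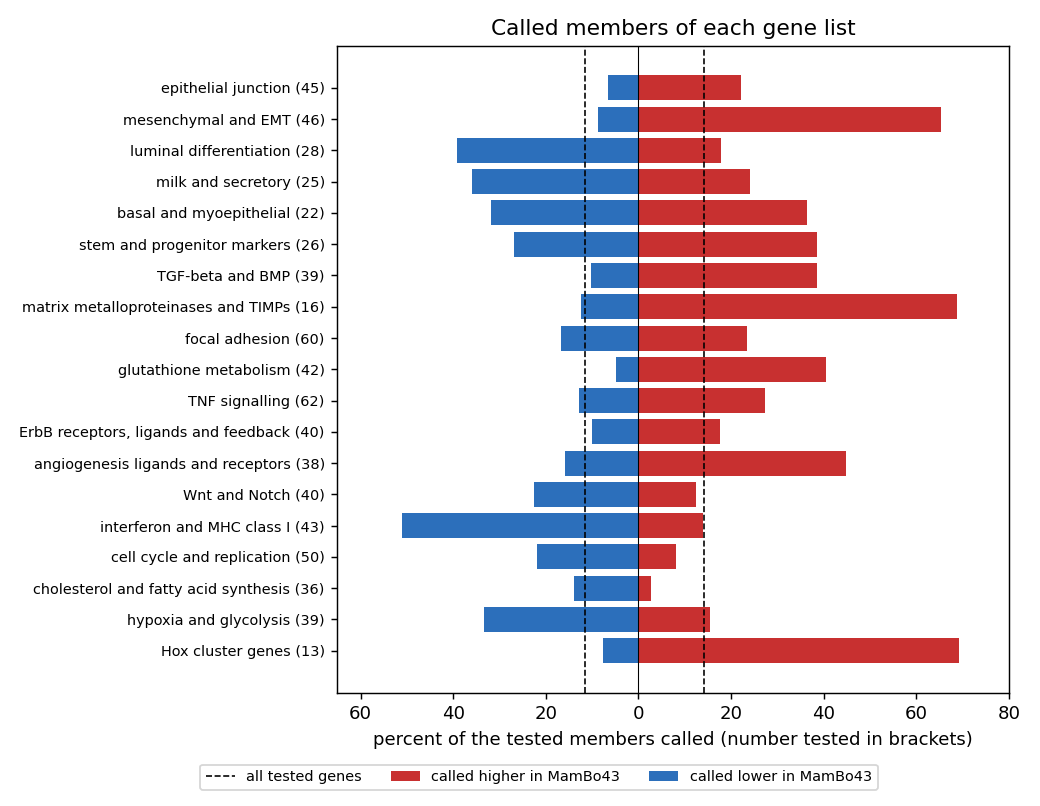
Percent of the tested members of 19 gene lists called higher (red, to the right) and lower (blue, to the left) in MamBo43, with the number tested in brackets and the shares over all 12893 tested genes as dashed lines (14.1% higher, 11.6% lower). The red bars of the mesenchymal, metalloproteinase and Hox lists reach 65.2%, 68.8% and 69.2%, and the blue bars of the interferon, luminal and hypoxia lists reach 51.2%, 39.3% and 33.3%.

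Several of the genes far higher in MamBo43 had lower levels in the other libraries of tumor B. Trastuzumab-treated MamBo43 (2 libraries) held 36 and 28.8 CPM of Anpep and 6.87 and 3.44 CPM of Cldn10, and MamBo38 (4 libraries) held 9.71 to 15.1 and 0 to 0.112 CPM. Hp was at 105 and 119 CPM in treated MamBo43 and at 0 to 0.144 CPM in MamBo38. Arpin was instead at similar levels in all tumor B libraries, with 19.9 and 14.7 CPM in treated MamBo43 and 18.6 to 23.2 CPM in MamBo38, and at 0 in all 4 MamBo89 libraries. Mmp14 likewise had 221 and 269 CPM and 422 to 546 CPM in these libraries. These levels are given as a description, without a test.

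The differences were not spread evenly over the chromosomes. Chromosome 14 held 422 tested genes, and MamBo43 was higher in 165 (39.1%) and lower in 21. Their median log2 fold change was 0.83, a 1.78-fold difference, and 86.3% of them were positive. The medians of the other autosomes lay between -0.28 (chromosome 11) and 0.30 (chromosome 10). Among the 250 genes of chromosome 14 with at least 10 CPM in all 4 libraries, the median was 0.77, so the shift was not limited to weakly expressed genes. Relative to the MamBo89 mean, the median of chromosome 14 was 0.62 to 0.74 in the 4 MamBo38 libraries and 0.73 to 0.82 in treated MamBo43, whereas AG3 had -0.16. All 7 tumor B libraries were thus higher on this chromosome than any of the 4 MamBo89 libraries. Shifts of such size were not limited to tumor B, since AG3 had a median of 0.66 on chromosome 13 and -0.40 on chromosome 15. Mmp14, Cldn10, Bmp4 and Clu lie on chromosome 14, with differences far beyond its median.

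Chromosome X moved the other way. Of 429 tested genes, 141 (32.9%) were lower and 48 were higher, with a median log2 fold change of -0.60. The shift did not cover the whole chromosome. In its first 10 Mb, 6 of 36 genes were higher, 5 were lower and the median was -0.09, and the shift ended at a boundary of about 120 Mb that was set after the values were seen. Before this boundary, the first 10 Mb included, 123 of 298 genes (41.3%) were lower, 19 were higher, the median was -0.87 and 254 genes were negative. From it on, 18 of 131 genes were lower, 29 were higher and the median was 0.21. Before the boundary, MamBo38 had medians of -1.18 to -1.07 and treated MamBo43 of -1.07 to -0.98 relative to the MamBo89 mean, against -0.18 in AG3. Without the genes of chromosomes 14 and X, 2944 genes were called, 1604 higher and 1340 lower, and the counts of the gene lists stayed within 1.5 times their values. DNA copy number was not analysed here.

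**Figure D4:**
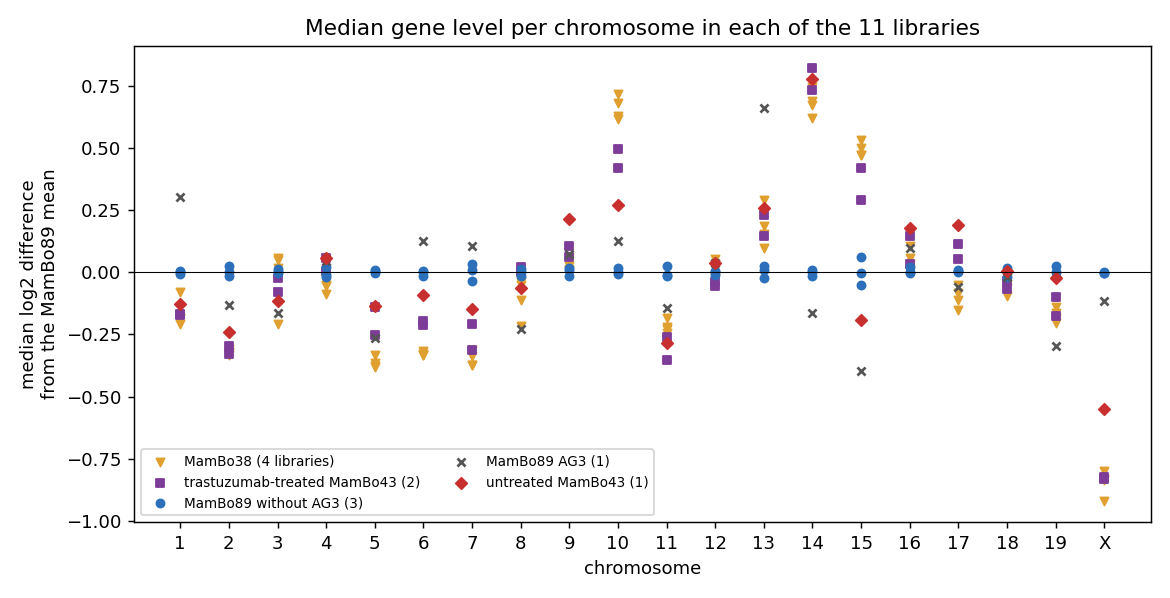
Median log2 difference of gene levels from the MamBo89 mean on each chromosome (x axis), for each of the 11 libraries, with the groups marked by symbol and colour. The tumor B libraries (red, purple and yellow) lie between 0.62 and 0.82 on chromosome 14 and below the MamBo89 libraries on chromosome X, and MamBo38 and treated MamBo43 also lie apart on chromosomes 10 and 15, where untreated MamBo43 is nearer to MamBo89. AG3 (grey crosses) lies apart on chromosome 13, at 0.66.

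**Figure D5:**
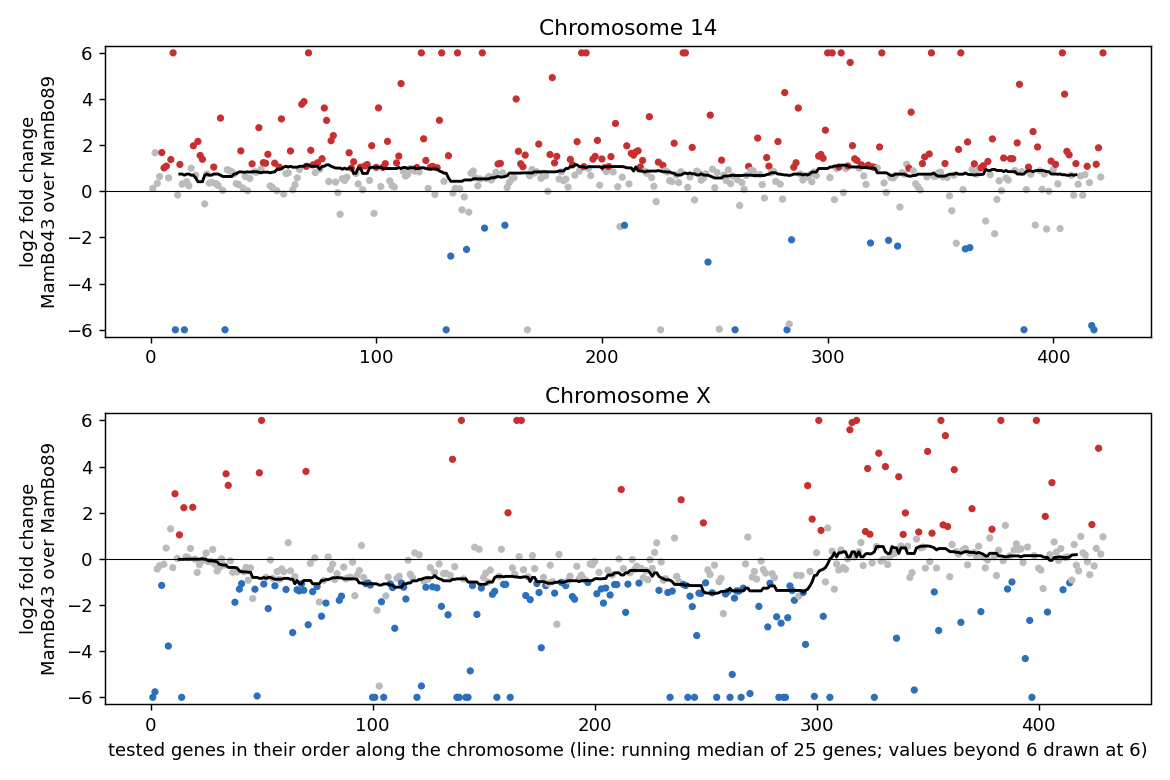
Log2 fold change of MamBo43 over MamBo89 for each tested gene of chromosomes 14 (upper panel, 422 genes) and X (lower panel, 429 genes), in their order along the chromosome, with genes called higher in red and lower in blue and a running median of 25 genes as a line. The line stays above 0 along chromosome 14, and on X it is near 0 over the first genes, lies below 0 from there until about gene 300 and above or near 0 after it.

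The longest runs of neighbouring tested genes called in the same direction were on chromosomes 17 and X. On chromosome 17, 10 genes from 35262730 to 35557180 of the MHC region were all higher, with log2 fold changes from 1.03 to 6.67. The run held the class I genes H2-D1, H2-Q1, H2-Q2, H2-Q4, H2-Q6, H2-Q7 and H2-Q10, followed by Tcf19, Cchcr1 and Cdsn. H2-Q2 had 14.5 CPM against 0.184, 0 and 0.219 CPM (log2 fold change 6.67 ± 0.58, edgeR adjusted p = 0.000724), and H2-Q4 had 113 CPM against 22.4, 25.6 and 29.4 CPM (log2 fold change 2.16 ± 0.17, edgeR adjusted p = 0.000507). The H2-Q genes resemble each other, and 7.02% to 17.9% of their windows occur in other transcripts, so their separate levels are uncertain. H2-Q1, H2-Q6, H2-Q7, Tcf19, Cchcr1 and Cdsn were not called with AG3 added.

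On chromosome X, 3 runs of 9 genes were all lower. The first, from 99136130 to 100727214, went from Efnb1 to Kif4 with a median log2 fold change of -1.62 and included Eda, Igbp1, Pja1 and Pdzd11. The second, from 101532734 to 102505359, held Taf1, Ogt, Rps4x and Hdac8 around Cited1. Ogt, the enzyme that adds O-linked N-acetylglucosamine, had 149 CPM against 393, 389.8 and 436 CPM (log2 fold change -1.42 ± 0.15, edgeR adjusted p = 0.00148). Rps4x, a ribosomal protein of the small subunit, had 1139 CPM against 3120.0, 2902 and 3159.7 CPM (log2 fold change -1.40 ± 0.15, edgeR adjusted p = 0.0014), with 29.3% of its windows shared with other transcripts. The third, from 106027276 to 109013404, had the largest median of -2.55 and held Pgk1 beside Atp7a, a copper transporter, with 14.4 CPM against 87.1, 94.9 and 68.9 CPM (log2 fold change -2.51 ± 0.24, edgeR adjusted p = 0.000976). Efnb1, Pja1, Igbp1, Kif4 and Rps4x were among the genes of these runs that were not called with AG3 added.

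Shorter runs were also seen, chosen here after their values were seen. On chromosome 2, 7 neighbours from Efcab8 to Bpifb5 were all lower, among them Bpifb1, a secreted protein of the BPI fold family, with 5.56 CPM against 353, 310.1 and 369.8 CPM (log2 fold change -5.92 ± 0.23, edgeR adjusted p = 6.67e-05) and 71.1 CPM in AG3. On the same chromosome, 5 neighbours with the oxidase genes Duox1 and Duox2 and their maturation factors Duoxa1 and Duoxa2 were lower, at most 7 CPM for Duox2 in MamBo89. On chromosome 5, 5 neighbours from Rassf6 to Cxcl2 were higher, which holds the chemokine genes Cxcl5, Cxcl15, Cxcl1 and Cxcl2 in 1 block. On chromosome 13, 6 histone genes from H1f3 to H2ac6 were lower with a median log2 fold change of -2.82.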

How the data were processed

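RNA of MamBo cultures was sequenced by the authors with a TruSeq v2 kit and single-end 75-base reads, demultiplexed with bcl2fastq, and aligned and counted with STAR 2.5 and RSEM 1.3.0 on mm10. The authors deposited expected counts from RSEM for 21846 mouse genes. No deposited value had a fraction, so none was rounded. The annotation behind them is not given in the sources used here, and the kit keeps no strand, so overlapping genes cannot be told apart. Groups were taken from the sample labels. The members and the gene lists were chosen with earlier results of these data known.

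In R 4.3.3, genes were kept by filterByExpr of edgeR 4.0.16 (minimum count 10, minimum total 15), scaled by TMM and tested with glmQLFit and glmQLFTest, with Benjamini-Hochberg adjustment over the tested genes. Calls used the thresholds of the study's methods, 0.1 for the adjusted p and 1 for the absolute log2 fold change. The fit left 2 residual degrees of freedom, with 3.99 prior degrees. The standard error is the absolute log2 fold change over the square root of F, and the prior count was 0.125. CPM use TMM sizes over all 11 libraries. A fold against a group at 0 was set against the CPM of 3 counts in a library, averaged over the libraries of that group. For 1 to 3 counts over a group the ratio has an exact 95% interval. These limits cover counting error only, since reads carry no molecular identifiers.

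Named genes were, in each direction, the 12 calls that differed most on the log2 scale with at least 20 CPM in the higher group, the same with at least 10 CPM in all 4 libraries, the leading member of each list, genes the study names, and the longest runs of neighbours. A gene that meets this rule is not reported here. Positions come from GENCODE M21 (GRCm38), which held 21804 of the genes. Read-length windows are 75-base stretches of the M21 transcripts. The fit was tested on simulated counts. Alternatives were DESeq2 1.42.0, RLE size factors, 2 other filters, an adjusted p under 0.05, glmTreat, robust estimation, AG3 added, untreated MamBo89 with AG3, all 11 libraries, untreated MamBo89 alone, and each MamBo89 library left out. The set without chromosomes 14 and X was added after the values were seen.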

Additional observations from a re-analysis of the deposited data

How the results depend on the processing

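The 3319 calls (1817 higher, 1502 lower) fell most where AG3 entered MamBo89: 1697 genes were called with it added (1077 higher, 620 lower), and 952 with untreated MamBo89 and AG3 alone (627 higher, 325 lower). Of these, 1666 and 940 were among the 3319 and in the same direction. The second of these fits has fewer libraries, and otherwise the cause was not tested. The glmTreat test, which requires a change beyond 2-fold, called 1928 genes (1156 higher, 772 lower). Leaving out each MamBo89 library gave 3170 to 3394 calls. The other alternatives gave 2261 to 3486 calls. In the alternatives with a test, no call shared with the main fit reversed its direction. The 129 tested named genes include some, such as Erbb2, Cdh1 and Vim, that were not called in the main fit. Among the called ones, 30 lost their call with AG3 added and 39 with untreated MamBo89 and AG3 alone. No paired analysis was possible because MamBo43 had 1 library. With a single MamBo43 library its own spread is unknown, and p-values rest on that of the MamBo89 cultures, which differed in trastuzumab schedule.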
